A study of Mus musculus with 16 samples.

Results

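RNA that sediments with a single ribosome, the monosome fraction, was compared with total RNA of the same mouse muscle. All arrays that the labels call monosome and all that they call whole muscle were taken, 10 of the 16 arrays of the series: 4 monosome arrays (WT replicates 1 and 2, Het replicates 1 and 3) and 6 whole-muscle arrays (WT replicates 1 to 3, Het replicates 1 to 3). The tissue was gastrocnemius, the large calf muscle, of mice aged 8 to 16 weeks. WT mice were wild type, and Het mice carried 1 inactivated copy of Eif6, which encodes a factor that binds the large ribosomal subunit. No tissue-specific driver is described for the allele, so effects within muscle and from other tissues cannot be told apart. Monosome RNA came from a sucrose gradient of muscle lysate, and how this fraction was bounded is not given in the sources used here. Per the study's methods, gradient RNA was precipitated with ethanol and treated with phenol-chloroform. Total RNA was extracted from muscle by a separately cited method. Kind of RNA and way of extraction thus cannot be told apart here. Per the series description, all kinds of RNA were isolated from the muscle of the same animals, and the monosome arrays did not enter the study's own analysis.

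An mRNA on a single ribosome can be one that is being initiated rarely, one whose reading frame is too short to hold several ribosomes, or one on which a ribosome has stalled. An mRNA translated at a high rate carries several ribosomes and sediments with the polysomes. The monosome zone of a gradient also holds free 80S ribosomes and any other particle of similar size. Mitochondria have ribosomes of their own, lighter than those of the cytoplasm, which translate the transcripts of mitochondrial DNA. Each array was scaled to the others, so a difference is a change in the share of an RNA within its library and not in molecules per fibre. In a bulk tissue, fewer cells of a type and less RNA per cell cannot be told apart.

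Several results below turn on probes that do not measure an ordinary cytoplasmic mRNA. The array probes for ND6 and ND4L, subunits of respiratory complex I encoded in mitochondrial DNA, and for Neat1, a long non-coding RNA of the nucleus, are shown 5′ to 3′ as the deposited files give them, with no base marked. Positions are on mouse build mm9. The ND6 probe lies on the minus strand at chrM:13552-13611, the ND4L probe on the plus strand at chrM:10114-10173 and the Neat1 probe on the minus strand at chr19:5842564-5842623.
ND6: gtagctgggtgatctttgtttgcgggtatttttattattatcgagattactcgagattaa
ND4L: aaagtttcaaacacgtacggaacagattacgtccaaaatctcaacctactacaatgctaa
Neat1: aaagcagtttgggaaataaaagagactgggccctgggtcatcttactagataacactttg

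The Eif6 probe separated the genotypes in both kinds of RNA. Its log2 signal was 8.97, 9.15 and 9.66 in WT whole muscle and 8.21, 8.39 and 8.4 in Het whole muscle. It was 9.36 and 10.16 in the WT monosome arrays and 7.82 and 8.06 in the Het monosome arrays. The groups did not overlap in either kind of RNA. The share of Eif6 in monosomes was not told apart from that in whole muscle (log2 difference 0.05 ± 0.27 SE, adjusted p = 0.885). This value turned to -0.20 without WT monosome 2 (adjusted p = 0.434), and its direction also turned under other settings given at the end.

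WT monosome 2 stood apart from the other 9 arrays. Pearson correlations across probes were 0.603 to 0.746 between it and the others, and 0.892 to 0.983 among the others. It was the dimmest array, with a 75th percentile of 12.7 intensity units against 13.5 to 150.1 on the other 9, and 23.5% of its spots were well above background. On transcripts with 2 probes at least 500 bases apart (236 pairs), the log2 signal nearer the 5′ end minus that nearer the 3′ end had a median of 0.24 on this array and -1.74 to -1.18 on the others. The WT polysome array with the same replicate number had -0.36, against -1.66 to -1.36 on the other 5 polysome arrays. Apart from this array, brightness did not separate the kinds of RNA: log2 brightness averaged 4.83 ± 0.40 (SD, n = 3) in monosome and 5.25 ± 1.23 (SD, n = 6) in whole muscle (2-sided exact permutation test, p = 0.667). The results below are therefore given with all 4 monosome arrays and, wherever the call or the value moved, without WT monosome 2.

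Named changes included falls of mRNAs for proteasome, tricarboxylic acid cycle and contractile proteins, and rises of Sepw1, which encodes a small muscle selenoprotein, Neat1 and ND6. In all, 1204 of 13646 probes (8.82%) passed an adjusted p under 0.05 and an absolute log2 difference above 1 between monosome and whole-muscle RNA, 329 higher (2.41%) and 875 lower (6.41%) in monosomes. With each array scaled to its 75th percentile instead, 287 were higher and 1474 lower. Without WT monosome 2, 1429 probes passed (10.5%), 399 higher (2.92%) and 1030 lower (7.55%). Both analyses called 949 probes in the same direction, 78.8% of the first list and 66.4% of the second, and no probe in opposite directions. With 1 probe per gene, 259 of 11256 genes (2.3%) were higher and 683 (6.07%) lower, 8.37% in all. These became 312 (2.77%) and 785 (6.97%), 9.75% in all, without WT monosome 2. The median difference over all genes was -0.07, and 0.08 without that array. With the mouse as a block, which leaves out the whole-muscle arrays of WT 3 and Het 2, no probe passed in limma (0 of 13646, with and without WT monosome 2), while 2375 had an unadjusted p under 0.05 with all arrays and 4427 without WT monosome 2. With the mouse as a random block, which keeps all 10 arrays, 1154 probes passed. The calls below thus rest on the spread between arrays and were not reached by differences within mice alone. Within slide 1 of the 2 array slides 174 probes passed, and within slide 2, which holds WT monosome 2, none did (3552 at an unadjusted p under 0.05).

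The plot of gene lists shows the order of the groups. The polysome values beside them share the whole-muscle arrays with the monosome values and are given only for reference. In the fit of all 16 arrays, 16.2% of all genes differed between monosomes and polysomes, 5.9% higher and 10.3% lower in monosomes. Without WT monosome 2, 19.6% differed, 9.89% higher and 9.67% lower. The polysome array of the same replicate number, WT polysome 2, was kept in that fit.

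**Figure D1:**
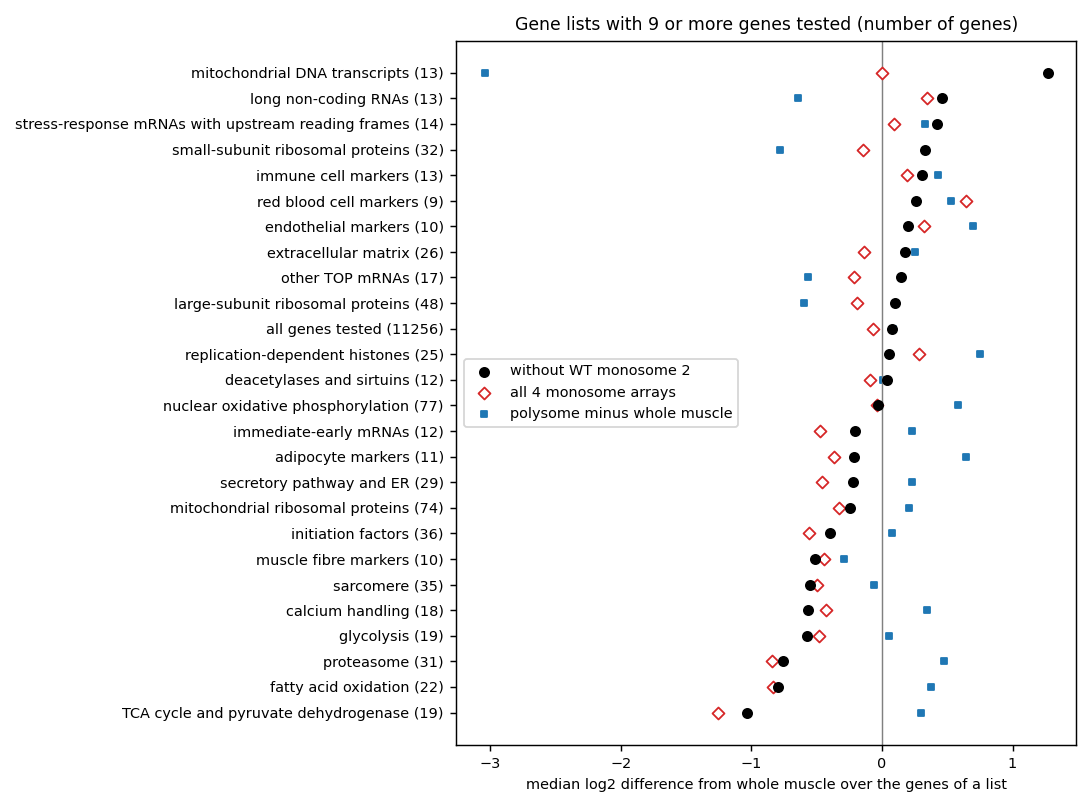
Median log2 difference from whole muscle over the genes of each list with 9 or more genes tested, for monosome RNA without WT monosome 2 (black), monosome RNA with all 4 arrays (red) and polysome RNA (blue). Tricarboxylic acid cycle genes had the lowest monosome median (-1.03 without WT monosome 2), and the transcripts of mitochondrial DNA the highest (1.27), which was 0.00 with all 4 arrays.

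Part of the proteasome mRNAs fell in monosomes. The proteasome is the protease complex that degrades ubiquitin-tagged proteins, and its subunits are made in fixed proportions. Of 31 genes tested, 8 fell and none rose, against 6.07% of all genes lower, and the median log2 difference was -0.84. Without WT monosome 2, 12 fell and all 31 differences were negative (from -3.41 to -0.21, median -0.76). In 16 of the 31 genes the 4 monosome values lay below all 6 whole-muscle values, against 14% of all genes.

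Psmd6, a subunit of the regulatory particle (mm9 chr14:14946703-14946762), had log2 signals of 8.17 and 7.78 in WT and 8.58 and 8.53 in Het monosomes. In whole muscle its lowest, median and highest values were 10.28, 10.51 and 10.64. All 4 monosome arrays lay about 2 log2 units below whole muscle, WT monosome 2 lowest, and the difference was -2.23 ± 0.18 (SE, adjusted p = 0.00201). Psma6, an outer-ring subunit of the core particle, gave 7.58, 9.10, 8.36 and 8.34 in WT 1, WT 2, Het 1 and Het 3 monosomes and 10.37 to 10.75 in whole muscle. Its difference was -2.24 ± 0.28 (SE, adjusted p = 0.00374), and here WT monosome 1 was the lowest array. Psmd14, the subunit that removes ubiquitin from substrates, was well above background on all whole-muscle arrays and on no monosome array. It thus entered the test only through the arrays where it was high, and it is counted among the genes that fell. With lower monosome values raised to the lowest signal well above background on each array, it was 6.06-fold lower in monosomes. The limit for a single probe can lie higher, so this is no strict bound. Core subunits Psmb2 (-1.90) and Psmb1 (-1.60) also fell. In the fit of all 16 arrays, 22 of the 31 genes were lower in monosomes than in polysomes, against 10.3% of all genes, and none was higher.

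Several enzymes of oxidative metabolism fell as well. Of 19 genes of the tricarboxylic acid cycle and the pyruvate dehydrogenase complex, 8 fell and none rose (median -1.26), against 6.07% of all genes lower, and 10 fell without WT monosome 2 (median -1.03), against 6.97%. The list's median difference from the whole-muscle mean was -1.05 on WT monosome 1, -2.07 on WT monosome 2, -0.88 on Het 1 and -1.07 on Het 3, against -0.12 to 0.14 on the whole-muscle arrays. Every monosome array was below every whole-muscle array, WT monosome 2 by most.

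Suclg1, the alpha subunit of succinyl-CoA ligase (mm9 chr6:73221044-73221103), had log2 signals of 7.42 and 8.95 in WT and 8.97 and 9.01 in Het monosomes. Its lowest, median and highest values in whole muscle were 10.92, 11.13 and 11.25. The groups did not overlap, and the difference was -2.52 ± 0.31 (SE, adjusted p = 0.00374). Dld, the dihydrolipoamide dehydrogenase shared by several such complexes (-1.94), and Fh1, fumarate hydratase (-1.84), fell too, each on 2 of 2 probes. Mdh2, mitochondrial malate dehydrogenase, fell by 1.17. Pdha1, a subunit of pyruvate dehydrogenase, passed only without WT monosome 2 (-1.34, adjusted p = 0.0029; -2.30 and adjusted p = 0.056 with all arrays).

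Of 22 genes of fatty acid oxidation, 3 fell and none rose (median -0.83), against 6.07% of all genes lower, and 4 fell without WT monosome 2 (median -0.80), against 6.97%. By the brightest probe of each gene, Ech1, an auxiliary enzyme for unsaturated fatty acids, fell in both analyses (-1.57 and -1.87). Etfa and Hadhb, an electron carrier and a subunit of the trifunctional protein, fell with all arrays (-1.06 and -1.01) and did not pass without WT monosome 2 (-0.90 and -0.81). A second, dimmer Etfa probe fell in both analyses (-3.01 and -2.95). Eci1 (-1.19) and Acads (-1.01) fell without WT monosome 2, as did the carnitine carrier Slc25a20, whose spots were well above background on 2 of 4 monosome arrays, so that the size of its difference is uncertain. Of 19 glycolysis genes, 2 fell in either analysis, against 6.07% and 6.97% of all genes: Gpd1, glycerol-3-phosphate dehydrogenase (-1.21), and Pgk1, phosphoglycerate kinase (-1.23, 2 of 2 probes). Gapdh was not uniform. Its brightest probe, which the files place at chr7:59003199-59003257 in mm9, differed by -0.46 (adjusted p = 0.0921), while 4 of its 8 tested probes fell and their differences ran from -2.98 to -0.36. Gapdh has many near-identical copies in the mouse genome, and which copy each probe reads is uncertain.

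Genes of oxidative phosphorylation encoded in the nucleus moved in both directions. Of 77 tested, 7 rose and 10 fell, against 2.3% and 6.07% of all genes. Without WT monosome 2, 11 rose and 10 fell, against 2.77% and 6.97%. The members that rose in both analyses were Ndufa3, Ndufa2 and Ndufv3, accessory subunits of complex I, Cox8a and Cox8b, subunits of cytochrome oxidase, and Atp5e and Atp5k, subunits of ATP synthase. The members that fell in both were Ndufs8, Ndufa10, Ndufa11 and Ndufb6 of complex I, Sdha of complex II, Cyc1 and Uqcrc2 of complex III and Atp5a1 of ATP synthase. The array's probe lay at a median of 311 bases from the transcript start for the 11 genes that rose without WT monosome 2 (range 205 to 1517) and at 1143.5 bases for the 10 that fell (range 56 to 2369), over a list median of 493. Probe position tracks transcript length only roughly, and protein lengths were not analysed here.

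Ndufa3 (mm9 chr7:3571695-3571754) had log2 signals of 14.48 and 14.73 in WT and 15.27 and 15.05 in Het monosomes. In whole muscle its lowest, median and highest values were 12.94, 13.26 and 13.42. All monosome values were above all whole-muscle values, by 1.67 ± 0.21 (SE, adjusted p = 0.00374), and the polysome arrays lay between, from 13.55 to 14.32. Cox8b, the muscle isoform of its subunit, was higher by 1.48 ± 0.24 (SE, adjusted p = 0.00806). Ndufs8, an iron-sulfur subunit of complex I, was lower by 1.87 on the log2 scale, and its monosome values of 7.07 to 9.10 did not reach the whole-muscle minimum of 10.15. Of 74 mitochondrial ribosomal protein genes, 11 fell and none rose (median -0.33), against 6.07% of all genes lower, and 13 fell without WT monosome 2 (median -0.25), against 6.97%. Mrpl1 was among them, with spots well above background on 2 of 4 monosome arrays, so that its size is uncertain. Mrpl46 fell by 1.63, and Mrps22 by 2.38 with all arrays and by 1.77 without WT monosome 2, with 3 of 4 monosome arrays above background.

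Some contractile mRNAs had a lower share in monosomes. All 10 markers of the muscle fibre were measured well above background on all 10 arrays, so both kinds of RNA carried the signature of the labelled tissue. All 10 differences were negative, against 5927 of all 11256 genes, and 3 passed, against 6.07% of all genes lower: Mylpf, the regulatory light chain of fast myosin, Ckm, muscle creatine kinase, and Acta1, skeletal actin. Of 35 sarcomere genes, 6 fell and none rose (median -0.50), against 6.07% of all genes lower, and 10 fell without WT monosome 2 (median -0.55), against 6.97%. In 29 of the 35 the difference was negative without that array.

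Mylpf gave log2 signals of 5.24, 7.38, 7.03 and 7.04 in WT 1, WT 2, Het 1 and Het 3 monosomes and 8.37 to 9.11 in whole muscle, a difference of -2.09 ± 0.40 (SE, adjusted p = 0.0129). WT monosome 1 was far below the other 3 monosome arrays for this gene. The Mylpf probe starts at base 69 of its transcript. Its mean log2 signal of 7.92 was the lowest of the fibre markers, whose median was 16.82. How well this probe reads the mRNA was not tested. Ckm gave 12.58, 14.96, 12.22 and 13.55 in the same order and 14.19 to 15.82 in whole muscle. For Ckm the groups overlapped through WT monosome 2, and the difference was -1.80 with all arrays (adjusted p = 0.0358) and -2.28 without it (adjusted p = 0.00212). Actn2, a protein of the Z-disc, was lower too (-1.66, adjusted p = 0.00746), as was the giant protein Ttn (-1.89, and -1.26 without WT monosome 2), though only 1 of 4 Ttn probes passed. Of 18 genes of calcium handling, 3 fell, against 6.07% of all genes: Atp2a1, the calcium pump of fast fibres (-2.31), Casq1, its calcium store protein (-1.81), and Asph (-1.15). Cacna1s, the voltage sensor channel, rose by 1.03 with all arrays and did not pass without WT monosome 2 (0.92).

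Of 36 initiation factors, 4 fell and 1 rose (median -0.56), against 6.07% and 2.3% of all genes. Leaving out WT monosome 2, 5 fell and 1 rose (median -0.40), against 6.97% and 2.77% of all genes. Eif3i, a subunit of the scaffold factor eIF3, had 5.06 and 6.22 in WT and 6.49 and 6.59 in Het monosomes against 8.03 to 8.50 in whole muscle, a difference of -2.13 ± 0.30 (SE, adjusted p = 0.00551). Eif3a, another eIF3 subunit, differed by -2.43 with all arrays and by -1.5 without WT monosome 2, with 3 of 4 monosome arrays above background. Eif2s1, the regulated alpha subunit of eIF2, differed by -1.80 and -1.32 in the same way, also with 3 of 4 monosome arrays above background. Eif3e, counted with the mRNAs that start with a pyrimidine tract, differed by -2.69 with all arrays and by -2.21 without WT monosome 2, again with 3 of 4 monosome arrays above background. Eif4ebp2, a repressor of cap-dependent initiation, was the member that rose (1.56, and 1.41 without WT monosome 2). Against polysomes these genes differed among themselves. Monosome minus polysome was -0.14 for Eif3i (adjusted p = 0.776), -0.25 for Eif3e (adjusted p = 0.611) and -0.95 for Eif3a (adjusted p = 0.239), none of which passed. Eif2s1 was lower in monosomes than in polysomes with all arrays (-1.27, adjusted p = 0.0199) and not called without WT monosome 2 (-0.85, adjusted p = 0.0463), and Eif4ebp2 was higher (2.07, adjusted p = 7.8e-05).

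**Figure D2:**
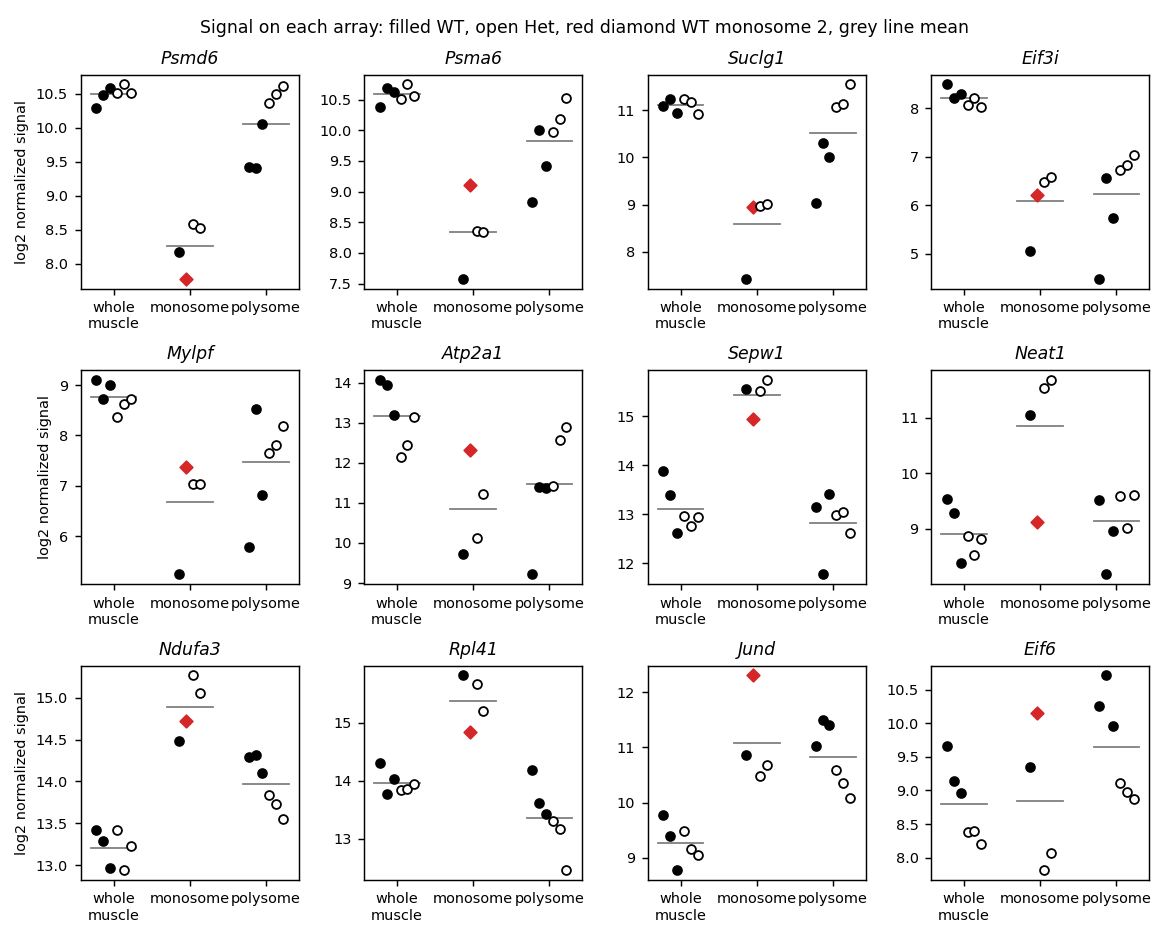
Log2 normalized signal of 12 genes on every array of whole muscle, monosome and polysome RNA; filled symbols are WT, open symbols Het, the red diamond is WT monosome 2 and grey lines are group means. The 4 monosome values lie below all whole-muscle values for Psmd6, Psma6, Suclg1, Eif3i and Mylpf and above them for Sepw1, Ndufa3, Rpl41 and Jund.

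Transcripts of mitochondrial DNA gave the largest median contrast between monosomes and polysomes of the lists examined. The 13 protein-coding transcripts of this genome are made as long precursors, ND6 from one strand and the other 12 from the opposite strand, and they encode core subunits of the respiratory chain. With all 4 arrays, ND6 was called higher and the other 12 did not pass (median 0.00), against 2.3% of all genes higher. Without WT monosome 2, 7 of 13 rose: ND4L, ND6, ND5, ATP8, ATP6, ND3 and ND2, with none lower and a median of 1.27, against 2.77% of all genes higher. The list's median difference from the whole-muscle mean was 0.63 on WT monosome 1, 1.27 on Het 1, 1.46 on Het 3 and -3.22 on WT monosome 2, against -0.19 to 0.17 on the whole-muscle arrays. WT monosome 2 thus had the opposite sign to the other 3. Within slide 1, which holds WT 1 and Het 1 monosomes, the median was 0.98, and within slide 2, which holds WT 2 and Het 3, it was -1.23.

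ND6, whose probe is shown above, had log2 signals of 9.80 and 8.03 in WT and 8.35 and 8.83 in Het monosomes. Its lowest, median and highest values in whole muscle were 5.26, 6.97 and 7.59. No monosome value overlapped whole muscle, and the difference was 2.01 ± 0.48 (SE, adjusted p = 0.0277). ND4L gave 16.39, 14.05, 16.55 and 16.83 in WT 1, WT 2, Het 1 and Het 3 monosomes against 13.99 to 14.57 in whole muscle. The 3 arrays other than WT monosome 2 were above the whole-muscle range, and the difference was 1.66 with all arrays (adjusted p = 0.0515) and 2.29 ± 0.21 without that array (SE, adjusted p = 0.000304). At the low end were ND1 and ND4, at -0.45 (adjusted p = 0.447) and -0.03 (adjusted p = 0.970) without WT monosome 2. COX1, COX2, COX3 and CYTB were between 0.44 and 0.87, with no call. The ND3 probe is placed by the files on chromosome 1 and not on mitochondrial DNA, at chr1:24619613-24619672, so its target is uncertain.

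Against polysomes the difference was larger. In the fit of all 16 arrays, 11 of the 13 were higher in monosomes than in polysomes (median 2.79), against 5.9% of all genes, and without WT monosome 2 all 13 were (median 3.66), against 9.89%. Polysome arrays were below whole muscle for 12 of the 13, with log2 differences from -4.21 for ND1 to -1.46 for ND4L. ND6 was the exception, at 0.48 in polysomes (adjusted p = 0.43). The list's median on single polysome arrays ran from -4.81 to -1.82, and the lowest of these, WT polysome 2, bears the replicate number of WT monosome 2. WT polysome 2 was kept when WT monosome 2 was left out, so the larger median then rests on leaving out a low array on the monosome side only.

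**Figure D3:**
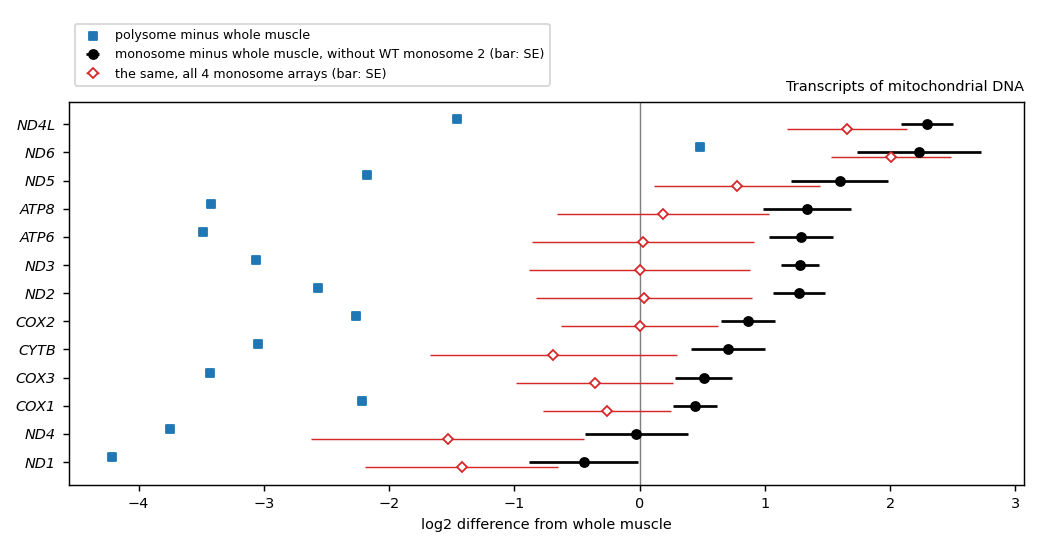
Log2 difference from whole muscle of the 13 protein-coding transcripts of mitochondrial DNA, for monosome RNA without WT monosome 2 (black, bar SE), monosome RNA with all 4 arrays (red, bar SE) and polysome RNA (blue squares). Monosome values run from -0.45 for ND1 to 2.29 for ND4L without WT monosome 2, and polysome values lie below 0 for all but ND6.

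Ribosomal protein mRNAs were close to whole muscle in monosomes. These mRNAs begin with a C and a run of pyrimidines (a TOP start), through which growth signals switch their translation, and in resting tissue many of them sit outside polysomes. Of 48 large-subunit genes, Rpl41 alone rose with all arrays (median -0.19), against 2.3% of all genes higher. Rpl41 and Rplp2 rose without WT monosome 2 (median 0.10), against 2.77%. Of 32 small-subunit genes none passed in either analysis, against 8.37% and 9.75% of all genes, with medians of -0.15 and 0.33. The median of the large-subunit list was -1.41 on WT monosome 2 and 0.02 to 0.20 on the other 3 monosome arrays. Against polysomes, 20 of the 48 and 18 of the 32 were higher in monosomes without WT monosome 2 (9.89% of all genes), and 6 and 5 with it (5.9%). None of the 80 was lower than in polysomes.

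Rpl41, the shortest ribosomal protein, had log2 signals of 15.82, 14.84, 15.68 and 15.21 in WT 1, WT 2, Het 1 and Het 3 monosomes. Its lowest, median and highest values in whole muscle were 13.77, 13.90 and 14.31, so that the groups did not overlap. The difference was 1.43 ± 0.24 (SE, adjusted p = 0.00837). Rplp2, an acidic stalk protein, differed by 0.71 with all arrays (adjusted p = 0.107) and by 1.04 without WT monosome 2 (adjusted p = 0.00105). Of 17 other mRNAs known for a TOP start, Eef2, an elongation factor, rose with all arrays (1.01, and 0.99 with no call without WT monosome 2), and Gas5, a non-coding RNA that hosts small nucleolar RNAs, without WT monosome 2 (1.42, and 0.54 with all arrays), against 2.3% and 2.77% of all genes higher. Eif3e, given above, fell in both analyses. Gas5 gave 8.17, 4.82, 8.88 and 8.47 in WT 1, WT 2, Het 1 and Het 3 monosomes and 6.86 to 7.21 in whole muscle, so WT monosome 2 alone lay below the whole-muscle range. Gas5 was well above background on 3 of the 4 monosome arrays.

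The first 30 bases at the RefSeq start sites of the 3 members that rose without WT monosome 2 are shown because the TOP run is defined by them, with the uninterrupted pyrimidine run at the first base in capitals. They are from RefSeq, build GRCm38.p6, at chr7:141447651-141447680 (Rplp2, plus strand), chr1:161035166-161035195 (Gas5, second listed start, plus strand) and chr10:128549139-128549168 (Rpl41, minus strand).
Rplp2: CTTTCgccgccggacgccgccgaggtcgca
Gas5: CTTTCggagctgtgcggcattctgagcagg
Rpl41: ggaagtgacgacaccgagcacgccattaaa
Rplp2 and this start of Gas5 had the run, while Rpl41 and the other listed start of Gas5 had none at the first base. A C followed by 4 pyrimidines at the start base, on the sense strand, was present in 2.51% of the 32851 promoters of the table, in 18.2% of the 33 large-subunit and 31.8% of the 22 small-subunit genes with a promoter entry, and in 3.39% of the genes that rose and 2.74% of those that fell without WT monosome 2, against 3.23% of the 6370 tested genes with an entry. RefSeq start sites can be off by some bases, so a gene without the run at that base may still have one nearby.

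Non-coding RNAs included some of the largest rises. Neat1, the scaffold RNA of nuclear paraspeckles, had log2 signals of 11.04, 9.12, 11.53 and 11.68 in WT 1, WT 2, Het 1 and Het 3 monosomes. In whole muscle its lowest, median and highest values were 8.38, 8.84 and 9.54. WT monosome 2 alone fell within the whole-muscle range, and the difference was 1.94 ± 0.48 (SE, adjusted p = 0.0304), or 2.52 ± 0.28 without that array (adjusted p = 0.000461). Of 6 tested probes with this name, 5 were higher with all arrays and 6 without WT monosome 2, at 2.26 to 2.54. Polysome values of 8.18 to 9.61 were near those of whole muscle.

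Of 13 long non-coding RNAs tested, Neat1 rose and H19 fell with all arrays (median 0.35), against 2.3% and 6.07% of all genes. Without WT monosome 2, Neat1, Gas5 and Meg3 rose and H19 fell (median 0.46, 12 of 13 above 0), against 2.77% and 6.97%. Within slide 2 the median was -0.66, and within slide 1 it was 0.46. H19, an imprinted RNA abundant in muscle, was lower on 6 of 6 probes (-2.91 to -1.62), and its monosome values of 9.98 to 11.30 lay below the whole-muscle minimum of 11.48. H19 was low in polysomes as well (polysome minus whole muscle -2.45), and monosome minus polysome was 0.71 with no call. Probes for intergenic RNA loci, which the array names by position, had a median of 0.76 over 1629 probes with all arrays and 0.44 without WT monosome 2. Of these, 3.44% were higher and 1.29% lower with all arrays, against 2.41% and 6.41% of all probes, and 4.17% and 2.39% without WT monosome 2, against 2.92% and 7.55%. Among 102 such loci with 3 or more tested probes, the highest median without WT monosome 2 was at mm9 chr2:104597982-104600748 on the reverse strand (2.27, 3 of 3 probes higher in both analyses). It was followed by 2 reverse-strand loci at chr19:5801802-5802597 (1.55) and chr19:5798135-5800557 (1.41), where 3 of 3 probes rose without WT monosome 2 and none with it. These lie within 10 kilobases of the array's own NEAT2 probes at chr19:5795713-5795892, none of which passed the filter. The lowest was chr5:35975265-35982561, reverse strand (-2.23, 3 of 3 probes lower in both analyses).

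Of the called genes that were well above background on all 10 arrays and did not overlap between groups, Sepw1 had the highest difference. It had log2 signals of 15.56 and 14.94 in WT and 15.52 and 15.74 in Het monosomes, against 12.62, 12.95 and 13.89 as the lowest, median and highest in whole muscle. The difference was 2.35 ± 0.29 (SE, adjusted p = 0.00374), and against polysomes it was 2.62 (adjusted p = 0.000119). Rn28s1, named for 28S ribosomal RNA, followed ND6 at 1.89, with its highest signal (17.13) on WT monosome 2. Jund, a stable member of the AP-1 factors, was higher by 1.81, and its values of 10.85, 12.30, 10.49 and 10.68 in WT 1, WT 2, Het 1 and Het 3 monosomes lay above the whole-muscle maximum of 9.77. The rest of the 12 were Bcl7b (1.81), Hopx (1.77), Ccbl2 (1.76), Mxra7 (1.73), Mfap4 (1.72), Zfp664 (1.69), Ndufa3 (1.67) and the muscle non-coding RNA Nctc1 (1.66). The second probes of Hopx and Zfp664 did not pass (0.91 and -1.38), so these 2 rest on 1 probe each. Hopx, Bcl7b, Jund, Ccbl2, Zfp664, Mfap4, Mxra7 and Nctc1 were highest on WT monosome 2 among the monosome arrays, and each passed without it, at 1.26 to 1.72. Jund, Bcl7b, Hopx, Mxra7 and Zfp664 were not called between monosomes and polysomes (0.25, 0.55, 0.19, 0.48 and 0.49), and all 5 were also higher in polysomes than in whole muscle (1.21 to 1.58).

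At the low end, Adsl, an enzyme of purine synthesis and the purine nucleotide cycle of muscle, differed by -2.56, with 4.71, 6.30, 5.08 and 5.50 in WT 1, WT 2, Het 1 and Het 3 monosomes against 7.49 to 8.33 in whole muscle. Apobec2, a muscle member of the deaminase family, differed by -2.55, Tcp1, a chaperonin subunit, by -2.38, Cops3, a subunit of the COP9 signalosome, by -2.32, and Fth1, the ferritin heavy chain, by -2.23. Cops3 had the narrowest spread of these, at 6.50 to 7.08 in monosomes and 9.06 to 9.30 in whole muscle (adjusted p = 0.00192). Rasl2-9 (-2.13) and Cnbp (-2.11) completed the 12 with the genes named above, and the second Cnbp probe went the other way (0.66, no call). All of these passed without WT monosome 2, at -2.81 to -1.57. Fth1 and Tcp1 were as low in polysomes as in monosomes: monosome minus polysome was 0.12 for Fth1 (adjusted p = 0.768) and -0.28 for Tcp1 (adjusted p = 0.441).

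Other lists held few calls. Of 14 stress-response mRNAs with upstream reading frames, Atf5 rose with all arrays (1.06, and 0.94 with no call without WT monosome 2), and Atf4 (1.11) and Ppp1r15a (1.17), a factor and a phosphatase subunit of the integrated stress response, rose without WT monosome 2, against 2.3% and 2.77% of all genes higher. Jund was the call among 12 immediate-early mRNAs in both analyses, against 2.3% and 2.77% of all genes higher. Ostc (-1.12) was that among 29 genes of the secretory pathway with all arrays, against 6.07% of all genes lower. Ostc did not pass without WT monosome 2, and Ssr2, a translocon-associated protein, then fell (-1.05), against 6.97% of all genes lower. Of 26 extracellular matrix genes, the collagen Col1a2 rose in both analyses (1.37 and 1.30), against 2.3% and 2.77% of all genes higher. Timp2 was called with all arrays only (1.07, and 0.81 without WT monosome 2), and its second probe gave -0.36. Lamb2, a laminin chain, fell without WT monosome 2 (-1.26, adjusted p = 0.002), against 6.97% of all genes lower. No call was made among 12 deacetylases and sirtuins with all arrays, against 8.37% of all genes. Without WT monosome 2 Sirt7 (-1.76, 1 of 2 probes) and Sirt5 (-1.01) fell, against 6.97% of all genes lower. Of 25 replication-dependent histone genes, 2 rose and 2 fell with all arrays, against 2.3% and 6.07% of all genes. Without WT monosome 2, 2 rose and 3 fell, against 2.77% and 6.97%. The 2 that rose were dim, with mean log2 signals of 5.50 and 4.08 against a list median of 9.93. The size of their rise is thus uncertain. Of 3 small nuclear and nucleolar RNAs none passed with all arrays, against 8.37% of all genes. Rnu3b1 fell by 1.73 without WT monosome 2, against 6.97% of all genes lower.

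Markers of other cell types held few calls. By the brightest probe of each gene, none of 13 immune, 10 endothelial or 4 Schwann cell markers passed in either analysis (medians 0.19, 0.32 and -0.43 with all arrays). Of all genes, 8.37% passed with all arrays and 9.75% without WT monosome 2. A second, dimmer probe of the Schwann cell marker Pmp22 was higher in both (1.66 and 1.08). Lpl, an enzyme that muscle fibres also make, fell among 11 adipocyte markers, against 6.07% and 6.97% of all genes lower. It fell on 2 of 2 probes. The brighter differed by -2.28, and by -1.42 without WT monosome 2, with 3 of 4 monosome arrays above background. Of 9 red blood cell markers, the globin Hba-a2 rose (1.5), against 2.3% of all genes higher. The transferrin receptor Tfrc fell without WT monosome 2 (-1.23), against 6.97% of all genes lower. The red blood cell list's median was 1.98 on WT monosome 2 and 0.21 to 0.38 on the other 3 monosome arrays. The immune list varied more between mice than between kinds of RNA, from -0.85 to 1.80 on the whole-muscle arrays. The part of these cells in the results above was not tested.

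The differences moved with the base composition of the probe. With all 4 arrays, the median difference was -0.64 over 2758 probes of at most 35% G and C and 0.85 over 459 probes above 55%. These medians were -0.10 and 0.42 without WT monosome 2. The distance of the probe from the transcript start moved with the calls as well. Among probes for RefSeq mRNAs, without WT monosome 2, 12.7% of those within the first 500 bases were lower and 5.46% higher, against 5.13% and 3.78% of those beyond 4000 bases. Lower calls became fewer with each step of distance, while higher calls were fewest, 1.75%, between 2000 and 4000 bases. The part of base composition and probe position in the results above was not tested.

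**Figure D4:**
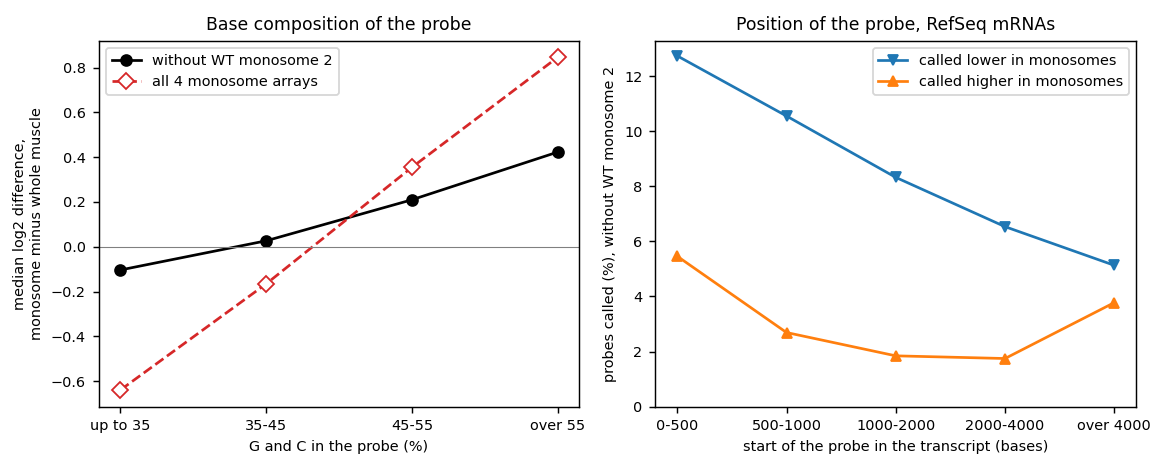
Left, median log2 difference between monosome and whole-muscle RNA by the G and C content of the probe, with all 4 monosome arrays (red) and without WT monosome 2 (black); right, share of RefSeq mRNA probes called lower or higher without WT monosome 2 by the distance of the probe from the transcript start. The red line spans -0.64 to 0.85 and the black line -0.10 to 0.42, and the share called lower falls from 12.7% to 5.13%.

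The genotypes were compared by the difference between their monosome contrasts. With all arrays, 3384 probes (24.8%) passed in WT and 1 (0.00733%) in Het, and without WT monosome 2 1895 (13.9%) and 1335 (9.78%), where the lone WT monosome array is assumed to vary like the other groups. These counts do not show that the genotypes differ. In the test of the difference itself, 1 probe of 13646 (0.00733%) passed in either analysis, while 2177 had an unadjusted p under 0.05 with all arrays. Without WT monosome 1, which leaves WT monosome 2 as the only WT monosome array and assumes that it varies like the other groups, 7790 passed. The probe was Bet1, a SNARE protein of transport between the endoplasmic reticulum and the Golgi apparatus.

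Bet1 had log2 signals of 1.76 and 1.61 in WT monosomes, 6.56 and 6.40 in Het monosomes and 5.86 to 6.65 in the 6 whole-muscle arrays. The WT monosome spots were not well above background. With their values raised to the lowest signal well above background on each array, WT monosomes were 3.78-fold below WT whole muscle. The limit for this probe can lie higher, so this is no strict bound. Het monosomes lay within the whole-muscle range. The difference between the genotypes had an adjusted p of 0.0135 in limma, and 0.016 without WT monosome 2. Its size cannot be given. The call was lost with 75th percentile scaling, normexp background correction, the authors' table, the fit of all 16 arrays, brightness as a covariate, array weights and the mouse as a block, within slide 1, and without any one of WT whole muscle 1, 2 or 3, Het whole muscle 1, Het monosome 1 or Het monosome 3. WT polysome 2 was low as well (3.20), and the other 5 polysome arrays gave 5.53 to 6.12. Without WT monosome 2, where WT rests on 1 monosome array, the list medians in WT and Het were -0.62 and -0.86 for the proteasome, -0.99 and -0.94 for the tricarboxylic acid cycle and -0.69 and -0.60 for the sarcomere. They were 0.41 and 1.45 for mitochondrial DNA, -0.26 and 0.25 for nuclear oxidative phosphorylation and 0.11 and -0.44 for adipocyte markers. The differences between genotypes in these medians were not tested.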

How the data were processed

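The arrays were Agilent 1-colour mouse arrays, 1 per sample. The authors scanned them and ran Feature Extraction 11.0.1.1, and the deposited output holds processed spot intensity, background-subtracted per the file headers and not scaled between arrays. The authors' deposited table holds quantile-normalized log2 values and was used as an alternative. Intensities were log2 transformed, outlier spots left out, spots of one probe averaged, and the 16 arrays quantile-normalized together. Of 55681 probes, 13646 were well above background on all monosome or all whole-muscle arrays and were tested, 9181 of them on all 10 arrays; 38 lacked a value and were left out.

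The 10 arrays were fitted with genotype and kind of RNA as terms with limma 3.58.1 in R 4.3.3, and p-values were adjusted by Benjamini-Hochberg across the probes tested. A call required an adjusted p under 0.05 and an absolute log2 difference above 1; for the difference between genotypes the adjusted p alone was used. Monosome was set against polysome in a fit of all 16 arrays. Per-array values were compared by 2-sided exact permutation tests (scipy 1.17.1). Replicates are arrays of separate mice as far as the labels say, and their small number limits the precision.

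Replicate numbers were taken as mice, since per the series description all kinds of RNA came from the same animals. The deviations of same-numbered monosome and whole-muscle arrays from their group means correlated at 0.04 (WT 1), 0.32 (WT 2), 0.21 (Het 1) and 0.41 (Het 3). Some arrays of different number correlated as high, such as WT monosome 1 with WT whole muscle 3 (0.35) and Het monosome 1 with Het whole muscle 2 (0.30), so the pairing rests on the description and not on these values. The gene lists, markers and members were chosen with earlier results of these data known. A gene was represented by its brightest tested probe. Named were the 12 highest and 12 lowest called genes that were above background on all 10 arrays, without overlap and with an ordinary gene name, up to 3 called members per list or else its 2 brightest, and Eif6. Further called list members, the transcripts of mitochondrial DNA, Gapdh and Bet1 were named after their values were seen. Some genes that the rule selects are not reported here. Positions of probes were taken from the files and are on mm9. The RefSeq table held 28026 of the 29796 RefSeq accessions among the probes. The fit was tested on simulated data. Alternatives were other scalings, background corrections, filters, slide, brightness or mouse as a term, array weights and leaving out each array.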

Additional observations from a re-analysis of the deposited data

Results flagged for a closer look

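In 110 sets of 4 or 6 arrays checked for 1 array apart from the rest, 14 had one. The sets share arrays and are not independent, and how many chance would give was not tested. WT monosome 2 was that array in 7 of the 14. Its median 5′ minus 3′ log2 signal was 0.2352, against -1.69 to -1.417 on the other monosome arrays. Its median difference from whole muscle was -1.408 for large-subunit ribosomal proteins (0.02297 to 0.195 on the others), -1.543 for small-subunit ribosomal proteins (0.2428 to 0.4213) and -2.074 for the tricarboxylic acid cycle (-1.066 to -0.8831). The same array had -2.222 for long non-coding RNAs (0.178 to 0.6682) and 1.98 for red blood cell markers (0.2104 to 0.3791), and its Rasl2-9 signal was 6.602 (8.325 to 8.432).

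WT monosome 1 was the array apart for 3 mRNAs, at a log2 signal of 7.425 for Suclg1 (8.947 to 9.008 on the other monosome arrays), 6.504 for Cops3 (6.988 to 7.082) and 5.238 for Mylpf (7.034 to 7.376). Among whole-muscle arrays, WT 2 had a calcium-handling median of 0.221 (-0.1139 to 0.009653 on the others), WT 3 a Fth1 signal of 15.15 (14.61 to 14.79), and Het 3 an initiation-factor median of -0.1509 (0.02004 to 0.05993) and a Cops3 signal of 9.062 (9.23 to 9.303).

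The monosome difference of Bet1 differed between Het and WT by the test of the difference itself, a call lost with 75th percentile scaling, normexp background correction, the authors' table, the fit of all 16 arrays, brightness, array weights and the block. The fitted value, 4.974 on the log2 scale, is no measure of its size, since both WT monosome spots were not well above background. With these raised to the lowest signal well above background on each array, WT monosomes were 3.78-fold below WT whole muscle.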

How the results depend on the processing

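The number of probes called between monosome and whole muscle, 1204, was 690 with normexp background correction, 174 within slide 1, 0 within slide 2, 0 with the replicate block, which pairs arrays of one mouse, 0 with this block and WT monosome 2 left out, and 2919 in the fit of all 16 arrays. It ran from 706 to 1431 with 1 array left out, and was 716 without WT whole muscle 3, 766 without Het whole muscle 2, 763 without Het whole muscle 1, 750 without WT whole muscle 2 and 706 without Het monosome 3. In WT alone, 3384 became 1087 with no filter, 0 within slide 1, 7809 within slide 2, 0 with the replicate block, 14 with brightness as a covariate, 1785 with WT monosome 2 left out and the processing redone, 1999 with the block and that array left out, and 0 with array weights (228 to 8289 with 1 array left out). In Het alone, 1 became 137 with normexp, 79 with the authors' table, 104 with the filter on all 10 arrays, 167 with no filter, 508 in the fit of all 16 arrays, 1476 with WT monosome 2 left out and the processing redone, 33 with a random block, 1602 with array weights, and 0 with 75th percentile scaling, scaling over the 10 arrays, slide as a term, within either slide, brightness, and the block with or without WT monosome 2 (0 to 1335 with 1 array left out). The 1 difference between genotypes became 26 with no filter, 2502 within slide 2, and 0 with 75th percentile scaling, normexp, the authors' table, the filter on all 10 arrays, slide 1 alone, the fit of all 16 arrays, brightness, array weights, and the block with or without WT monosome 2 (0 to 7790 with 1 array left out). The causes were not tested. The settings with a random block, array weights, or the block or processing redone without WT monosome 2 were chosen after seeing the data.

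The 59 called genes taken from the naming rule kept their direction in all 1583 values under other settings, and 384 of these did not pass. With the replicate block and within slide 2 none of the 59 passed, within slide 1 15 did, and without WT monosome 2 53 did. Scaling to the 75th percentile moved the median of all probes from -0.09 to -0.21. Direction turned for genes that were not called. Eif6 was -0.127 with 75th percentile scaling, -0.113 within slide 1, -0.00194 with the replicate block, -0.0433 with brightness, -0.205 with WT monosome 2 left out and the processing redone, -0.339 with the block as well, -0.310 with array weights, and -0.204 to 0.203 with 1 array left out. Rps14 was -0.431 with 75th percentile scaling, -0.00553 in the authors' table, -0.339 within slide 2, and -0.175 to 0.535 with 1 array left out. Rpsa was -0.151 with 75th percentile scaling and -0.290 within slide 2, Kdr -0.0227 within slide 1, and Pmp22 0.0693 with the replicate block and WT monosome 2 left out. On dim arrays fewer probes rise above background, which limits what can be compared for WT monosome 2.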
